A study of Mus musculus with 25 samples.

Results

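Oxidative phosphorylation was followed here through 107 protein-coding genes, 94 of them in the nuclear genome and 13 in the mitochondrial genome, out of 44674 genes present in both deposited count tables. The members were taken by gene symbol: Nduf followed by a, b, c, s or v, Sdha to Sdhd, Uqcr, Cox4i, Cox5, Cox6, Cox7, Cox8, Cyc1 and Atp5, together with the 13 protein-coding mt- genes. By symbol, 11 pseudogenes also matched and were left out. The nuclear members comprised 36 genes of complex I, 8 Ndufaf genes of complex I assembly, 4 of complex II, 9 of complex III, 20 of complex IV (Ndufa4 and Ndufa4l2 counted there) and 17 of complex V. The mitochondrial members comprised 7 genes of complex I, 1 of complex III, 3 of complex IV and 2 of complex V.

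The respiratory chain sits in the inner mitochondrial membrane. Complexes I and II take electrons from NADH and succinate, complex III passes them to cytochrome c, complex IV hands them to oxygen, and complex V (ATP synthase) makes ATP from the proton gradient that complexes I, III and IV build. Complex II is encoded wholly in the nucleus, whereas the other complexes combine nuclear subunits, translated on cytoplasmic ribosomes and imported, with subunits that are transcribed from mitochondrial DNA and translated on ribosomes inside the mitochondrion. Endothelial cells of brain capillaries are known for high mitochondrial content compared with other endothelia, although glycolysis supplies much of their ATP.

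The study set out to describe how short high-fat feeding changes ribosome-bound RNA of blood-brain barrier endothelial cells, and whether blocking glucose uptake in cultured cells gives a related change. All animals were 12-week-old mice carrying Slco1c1-CreERT2 and ROSA26 lSl L10aGFP in the tg/wt state, so that tamoxifen switched on GFP-tagged ribosomal protein L10a in cells in which the Slco1c1 promoter is active. They received high-fat diet (HFD) or control diet (CD) for 3 days, starting 3 weeks after tamoxifen, and each sample pooled the hypothalami of 4 mice, 2 female and 2 male. Each pool gave an immunoprecipitate of GFP-tagged ribosomes (IP) and the lysate it came from (INPUT), so that there were 4 HFD IP, 4 CD IP, 4 HFD INPUT and 4 CD INPUT libraries. The labels call all 16 of them endothelial, but the INPUT is whole hypothalamus. cEND, a mouse brain endothelial cell line, was treated with the vehicle DMSO or with the glucose transporter (Glut1) inhibitor WZB117 at 0.5 or 10 µM, with 1 library per treatment at each of passages 12, 14 and 18. These 9 libraries are from 1 line, so p-values over them measure the spread between cultures of that line. Levels are counts per 1000000 counts (CPM) scaled by TMM factors within each table, and a change was called at a Benjamini-Hochberg adjusted p under 0.05 in edgeR's quasi-likelihood test over all genes.

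Library totals ran from 27.9 M to 42.8 M counts (M, 1000000) in the 16 hypothalamic libraries and from 27.3 M to 41.2 M counts in the 9 cEND libraries. In the IP, 10 of 10 astrocyte markers and 15 of 15 endothelial markers were higher than in the INPUT, 10 of 10 neuron markers and 8 of 8 microglia markers were lower, and of 8 oligodendrocyte markers 7 were lower and 1 was higher. Of 9 pericyte and smooth muscle markers tested 2 were higher and 6 lower, and of 5 tanycyte and ependymal markers 4 were higher and 1 lower. These calls stand beside 42.1% of the 17085 genes tested called higher and 42.1% called lower. No marker of any list was at 0 in all hypothalamic libraries. In cEND cells Slco1c1, whose promoter drives the Cre in the mice, was at 0 in all 9 libraries, as were Mog, P2ry12, C1qa and Gjb6, markers of oligodendrocytes, microglia and astrocytes.

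Nuclear transcripts of the respiratory chain were higher on GFP-tagged ribosomes than in whole hypothalamus, in every complex. Of 93 nuclear members that passed the filter on low counts, 85 were higher in the IP, 4 were lower and 4 did not pass the test; Cox8c, a testis isoform, was filtered out. Most genes differ between these fractions: 84.2% of the 17085 genes tested passed, 42.1% higher and 42.1% lower. The median log2 fold change of the nuclear members was 0.68, and that of all genes tested was -0.01. As a share of counts on nuclear protein-coding genes, the nuclear members held 1.39 to 1.64% in the 8 IP libraries. In the 8 INPUT libraries they held 1.22 to 1.37%, so that the fractions did not overlap. A share weighs members by their counts and takes no TMM factor, so it need not match the median fold change in size.

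The IP and the INPUT differ in cell makeup, and their marker levels moved with these results. Summed astrocyte markers stood at 22620 to 28540 CPM in the IP and 3349 to 4134 CPM in the INPUT, and summed endothelial markers at 300 to 433 CPM in the IP and 59.99 to 80.34 CPM in the INPUT. Summed neuron markers stood at 3595 to 5075 CPM in the IP and 9134 to 11540 CPM in the INPUT. The part of cell makeup in the higher levels of respiratory transcripts was not tested. IP and INPUT of a pool come from the same lysate. The share of a cell type in the captured RNA and the level of a transcript within its cells cannot be told apart here.

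Complex I, the entry point for electrons from NADH, had 33 of 36 nuclear members higher in the IP and 1 lower, with a median log2 fold change of 0.61. Ndufa7, an accessory subunit, had 97.2, 104 and 112 CPM (lowest, median and highest) in the IP libraries and 36.4, 39.5 and 46.5 CPM in the INPUT libraries, a log2 fold change of 1.36 ± 0.05 (SE; edgeR adjusted p 2.31e-18). The fractions were far apart for Ndufa7, with the lowest IP library above the highest INPUT library. The catalytic core moved less. Ndufs1, the large iron-sulfur subunit, changed by 0.40 ± 0.06 on the log2 scale, and Ndufv1, which binds NADH, by 0.47 ± 0.06. Ndufb9 was slightly lower in the IP, at -0.14 ± 0.04 (151.8 to 187.0 CPM in the IP and 173.8 to 202.4 CPM in the INPUT, which overlapped). This call was lost when the 8 HFD libraries were fitted alone (adjusted p 0.0545). Ndufa5 (0.01) and Ndufb2 (0.06) did not pass the test.

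The 8 Ndufaf assembly factors, which help to build complex I without staying in it, showed the smallest shift of the nuclear groups: 6 were higher, Ndufaf5 was lower (-0.16 ± 0.05) and Ndufaf4 did not pass (0.01), with a median of 0.26. Ndufaf5, too, was no longer called in the HFD libraries alone (-0.17, adjusted p 0.0812). Their summed share of nuclear protein-coding counts was 0.0187 to 0.0225% in the IP and 0.0219 to 0.0242% in the INPUT. This was the only one of the 6 nuclear groups with a lower median share in the IP. For this group the direction thus depended on the measure.

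Complex II is succinate dehydrogenase, shared with the citric acid cycle, and all 4 of its subunits were higher in the IP. Sdhc, a membrane anchor, gave the largest rise among nuclear members with an average log2 CPM of at least 1, with 206.8, 231.9 and 251.3 CPM in the IP and 67.6, 73.9 and 79.4 CPM in the INPUT (log2 fold change 1.64 ± 0.05, edgeR adjusted p 1.63e-20). The other anchor, Sdhd, changed by 0.59 on the log2 scale, the iron-sulfur subunit Sdhb by 0.70 and the flavoprotein Sdha by 0.28 ± 0.04. The changes of the 4 subunits thus spanned 0.28 to 1.64 on the log2 scale. On CPM per kilobase, a scale on which genes can be compared, Sdhc reached 112.9 ± 8.4 in CD IP and 38.2 ± 1.6 in CD INPUT, while Sdha reached 145.5 ± 11.9 in CD IP and 115.5 ± 1.8 in CD INPUT (SD, n = 4 each).

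All 9 members of complex III were higher in the IP, with a median log2 fold change of 0.79. Uqcr11 and Uqcr10, small accessory subunits, led with 1.54 ± 0.08 and 1.33 ± 0.06. Uqcr11 had 129, 149 and 171 CPM in the IP and 42.4, 50.1 and 65.2 CPM in the INPUT. Uqcr10 had 148.5, 178 and 211 CPM in the IP and 63.8, 70.4 and 81.4 CPM in the INPUT. Neither gene's fractions overlapped. The Rieske iron-sulfur protein Uqcrfs1 changed by 0.99 ± 0.04, the core protein Uqcrc1 by 0.53 ± 0.05 and cytochrome c1 (Cyc1) by 0.46 ± 0.04.

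Complex IV, cytochrome c oxidase, is the complex with most tissue-specific isoforms; 16 of its 19 tested nuclear members were higher in the IP and 2 were lower, with a median of 0.69. The common isoforms were higher. Cox4i1 rose by 0.52 ± 0.07 (176, 218 and 240 CPM in the IP, 123, 147 and 169 CPM in the INPUT). Cox6a1 rose by 0.80 ± 0.05 (354, 434 and 483 CPM in the IP, 226, 239 and 268 CPM in the INPUT) and Cox8a rose by 1.01 ± 0.05 (234, 268.5 and 311 CPM in the IP, 123, 133 and 142 CPM in the INPUT). Cox6b1, Cox7a2, Cox5a and Ndufa4, which was first assigned to complex I and is now placed in complex IV, changed by 0.72, 0.57, 0.45 and 0.57 on the log2 scale.

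The minor isoforms diverged. Cox6a2, the isoform known from heart and skeletal muscle, was lower in the IP, with 0.511, 0.785 and 1.27 CPM in the IP and 3.20, 3.79 and 6.46 CPM in the INPUT (log2 fold change -2.44 ± 0.18, edgeR adjusted p 8.41e-12), opposite to Cox6a1. Cox4i2, known as the isoform of lung and of low oxygen, was higher at 0.847, 1.18 and 1.49 CPM in the IP and 0.0969, 0.293 and 0.518 CPM in the INPUT (1.97 ± 0.23). Cox7a1, the muscle isoform, was higher at 2.92, 4.45 and 5.69 CPM in the IP and 1.03, 1.52 and 2.36 CPM in the INPUT (1.44 ± 0.15). Cox6b2, the testis isoform, was higher at 1.86, 2.70 and 3.47 CPM in the IP and 0.685, 0.823 and 1.02 CPM in the INPUT (1.66 ± 0.15). All 3 of these higher isoforms had fractions that did not overlap, and all 4 minor isoforms were at low levels. Cox8b was higher as well, but at 0.170 to 0.531 CPM in the IP and 0 to 0.0761 CPM in the INPUT. Ndufa4l2, known as a hypoxia-induced relative of Ndufa4, had 0.133 to 0.433 CPM in the IP and 0.129 to 0.552 CPM in the INPUT and did not pass the test. Cox7a2l, a factor of supercomplex assembly, was lower by a small margin (-0.15 ± 0.05, overlapping ranges), and this call was lost in the HFD libraries alone (-0.06, adjusted p 0.463) and without the filter on low counts (-0.11, adjusted p 0.0504).

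All 17 members of complex V were higher in the IP, with a median of 0.77. The catalytic subunits moved least among the main ones: Atp5b, the beta subunit, had 1386, 1504 and 1700 CPM in the IP and 1076, 1211 and 1274 CPM in the INPUT (0.34 ± 0.05), and Atp5a1, the alpha subunit, changed by 0.36 ± 0.04. Small subunits moved more, with Atp5e at 1.18, Atp5o and Atp5k at 1.04 each. The 3 genes that encode the same ring subunit c differed, with Atp5g3 at 1.17 and Atp5g1 at 0.15.

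**Figure D1:**
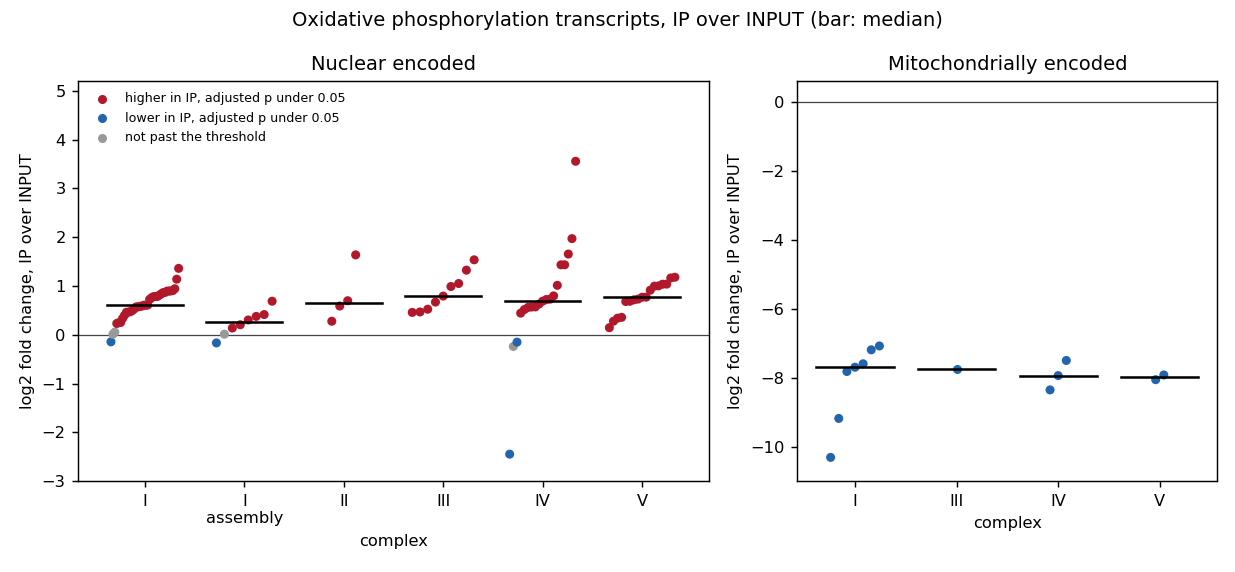
Log2 fold change of IP over INPUT (y axis) for each nuclear member (left panel) and each mitochondrial member (right panel), grouped by complex, with 1 point per gene and a bar at the group's median. Nuclear points lie mostly above 0, with medians of 0.26 for complex I assembly to 0.79 for complex III, and all 13 mitochondrial points lie at -7.08 or below.

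Within the nuclear set the change in the IP went with transcript length. Across the 93 nuclear members, which share libraries and depth, the Pearson correlation of the log2 fold change with log2 transcript length was -0.362 and Spearman's rho was -0.51. Members with transcripts under 600 bases had a median change of 0.849 (n = 30), those of 600 to 1000 bases 0.731 (n = 29), those of 1000 to 2000 bases 0.589 (n = 25) and those of 2000 bases or more 0.233 (n = 9). Over all 14767 nuclear protein-coding genes the same correlations were -0.116 and -0.152, and the medians were 0.227, 0.394, 0.208 and -0.0649 in the same order of length. The members thus stood above the median of all genes in each length class. The part of length, or of anything that goes with it, in the difference between the fractions was not tested.

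**Figure D2:**
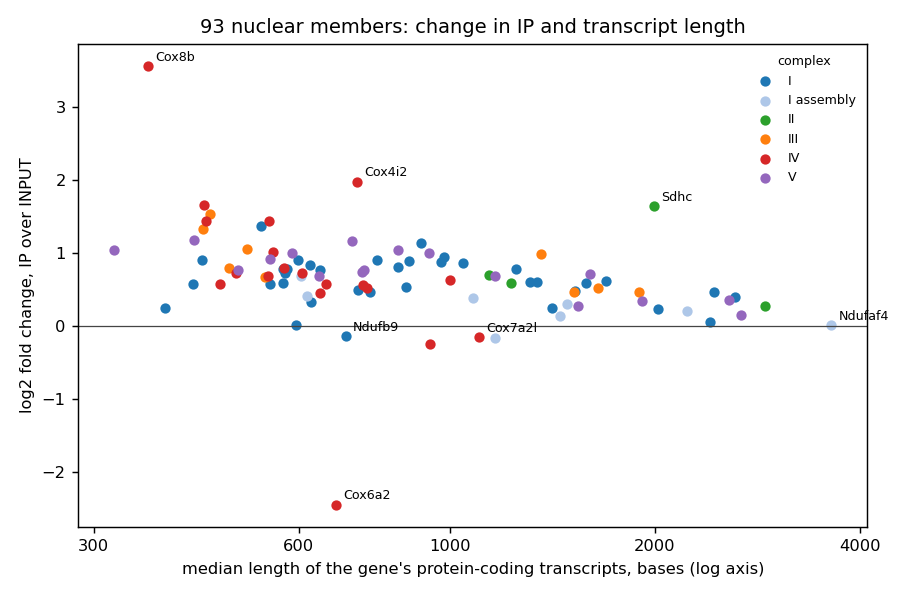
Log2 fold change of IP over INPUT (y axis) against the median length in bases of a gene's protein-coding transcripts (x axis, log scale) for the 93 nuclear members tested, coloured by complex. Short transcripts lie higher, with a median of 0.849 under 600 bases and 0.233 at 2000 bases or more, and Sdhc, with a length of 1993 bases, stands above the others of its length at 1.64.

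In CD IP libraries the most abundant nuclear members per length were Atp5b (784 ± 49 CPM per kilobase), Cox6a1 (712 ± 91), Cox7c (596 ± 65), Ndufa4 (503 ± 18) and Cox8a (458 ± 25; SD, n = 4 each). Atp5b and Cox6a1 did not differ by more than their summed SDs, and neither did Cox6a1 and Cox7c, whereas Cox7c and Ndufa4, and Ndufa4 and Cox8a, did. Within complex III the small subunits Uqcrh (433 ± 45), Uqcr10 (388 ± 35) and Uqcr11 (318 ± 34 CPM per kilobase) stood high in CD IP. Uqcrfs1, Cyc1 and Uqcrc1 lay far below them, at 71.1 ± 3.1, 68.4 ± 4.4 and 57.1 ± 4.5 CPM per kilobase. Not every small subunit was high. Uqcrb, with a transcript of 535 bases, had 36.7 to 50.7 CPM over all IP libraries. Uqcr11, with 445 bases, had 129 to 171 CPM there.

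Other genes of mitochondrial energy metabolism were examined as lists, and the median of each lay below the 0.68 of the nuclear members. Assembly factors outside the symbol rule had 31 higher and 5 lower of 43 tested (median 0.36), with Taco1 at 1.01 and Atpaf1 at -0.71. Mitochondrial transcription and translation had 12 higher and 4 lower of 20 (median 0.23), and Lrpprc, which stabilises mitochondrial messenger RNAs, was lower at -0.53. Among 10 regulators of respiratory genes 5 were higher and 3 lower: Gabpa (1.33), Esrra (0.89) and Ppargc1a (0.70) were higher in the IP, whereas Esrrg (-1.50) and Ppargc1b (-1.43) were lower. The citric acid cycle had 10 higher and 2 lower of 13 (median 0.52), with Suclg2 at 2.63 and Cs, citrate synthase, at 1.17. Genes for electron entry outside complexes I and II had 15 higher and 4 lower of 21 (median 0.44), including the electron transfer flavoprotein genes Etfa (1.81) and Etfb (1.82) and its dehydrogenase Etfdh (1.57), which feed electrons from fatty acid oxidation. Mitophagy and hypoxia genes had 11 higher and 1 lower of 13 (median 0.44), with Pink1 at 1.30. These counts stand beside the 84.2% of all genes that passed in the same comparison.

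The mitochondrially encoded members went the opposite way and by far more. All 13 were lower in the IP (edgeR, adjusted p between 1.07e-25 for mt-Cytb and 1.72e-07 for mt-Co3), with a median log2 fold change of -7.82. mt-Co1, the catalytic subunit of complex IV, had 55.9 to 84.6 CPM in the IP and 9656 to 14220 CPM in the INPUT (-7.50 ± 0.12). mt-Nd1 had 27.7 to 45.04 CPM in the IP and 4131 to 6190 CPM in the INPUT (-7.19 ± 0.13). mt-Nd5 had 17.4 to 29.2 CPM in the IP and 2566 to 3769 CPM in the INPUT (-7.08 ± 0.13). mt-Cytb, the only mitochondrial gene of complex III, had 14.7 to 20.7 CPM in the IP and 3319 to 4688 CPM in the INPUT (-7.74 ± 0.10). In every one of the 13 genes the highest IP library lay far below the lowest INPUT library. mt-Nd6, the only member on the other strand of the mitochondrial genome, lay in the same range, with 1.34 to 2.58 CPM in the IP and 342 to 521 CPM in the INPUT (-7.82 ± 0.13).

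The ratio of mitochondrial to nuclear counts turned over between the fractions. The IP selects GFP-tagged ribosomes, whereas mitochondrial messenger RNAs are translated on ribosomes inside the mitochondrion. The ratio thus describes the libraries and is no measure of the balance within the tagged cells. For each count on nuclear members there were 0.0141 to 0.0215 counts on mitochondrial members in the IP and 3.65 to 5.81 in the INPUT. Counts on the nuclear copy of mitochondrial DNA described below are left out of this ratio. Mitochondrial ribosomal RNA was shifted further than mitochondrial messenger RNA: the ratio of messenger to ribosomal counts was 0.384 to 0.664 in the IP and 0.106 to 0.131 in the INPUT, without overlap. Per length and as counted, mt-Co1 reached 44.5 ± 7.1 CPM per kilobase in CD IP and 7935 ± 175 in CD INPUT (SD, n = 4 each). In CD IP it lay below Uqcrc1. In CD INPUT it was above Atp5b, which stood at 784 ± 49 in CD IP and 618 ± 43 CPM per kilobase in CD INPUT. The nuclear copy of mt-Co1 held 16.8 to 18.4% of the sum of both loci in CD IP, and the order with Uqcrc1 was not examined with it added.

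The 3 largest fitted changes, mt-Nd3 (-10.31), mt-Nd4l (-9.18) and mt-Co3 (-8.35), need a separate reading. Mouse chromosome 1 holds a copy of 4653 bases of mitochondrial DNA (positions 6390 to 11042), at chr1:24611535-24616188 on the minus strand of GRCm38. The loci have 99.94% identity, 2 mismatches and 1 gap. It spans the whole of mt-Co2, mt-Atp8, mt-Atp6, mt-Co3, mt-Nd3 and mt-Nd4l, and parts of mt-Co1 (483 bases) and mt-Nd4 (876 bases), so that reads from these genes can be counted on either locus. The windows show how close the loci are, with 81 bases around a mismatch near the start of mt-Nd3 (in capitals) and the matching stretch of the copy, from the GRCm38 genome. mt-Nd3 spans positions 9459 to 9806, so the first bases of the window lie before the gene.
chrM:9421-9501 (+): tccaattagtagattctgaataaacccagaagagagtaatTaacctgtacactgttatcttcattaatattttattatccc
chr1:24613077-24613157 (-): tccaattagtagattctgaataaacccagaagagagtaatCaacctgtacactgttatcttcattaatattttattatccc

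Counts split between the loci unevenly from library to library. mt-Co3 itself had 73, 0, 0 and 393 counts in the 4 HFD IP libraries and 0, 762, 151 and 0 in the 4 CD IP libraries, while its chromosome 1 copy, Gm28437, had 480, 486, 420 and 0 in HFD IP and 451, 0, 284 and 419 in CD IP. Every IP library at 0 on the gene had 419 or more counts on the copy. mt-Nd3 and mt-Nd4l were at 0 in 7 of 8 IP libraries each, so their fitted changes depend on the prior count and are no bound. With the counts of the copies added to their genes, an alternative chosen after seeing the data, mt-Nd3 changed by -7.32 ± 0.14, mt-Nd4l by -7.66 ± 0.13, mt-Co3 by -7.64 ± 0.14 and mt-Co2 by -7.82 ± 0.14. The 13 members then ran from -8.14 (mt-Atp6) to -7.08 (mt-Nd5), with a median of -7.66. All 13 were again lower in the IP, beside 84.2% of all genes called.

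**Figure D3:**
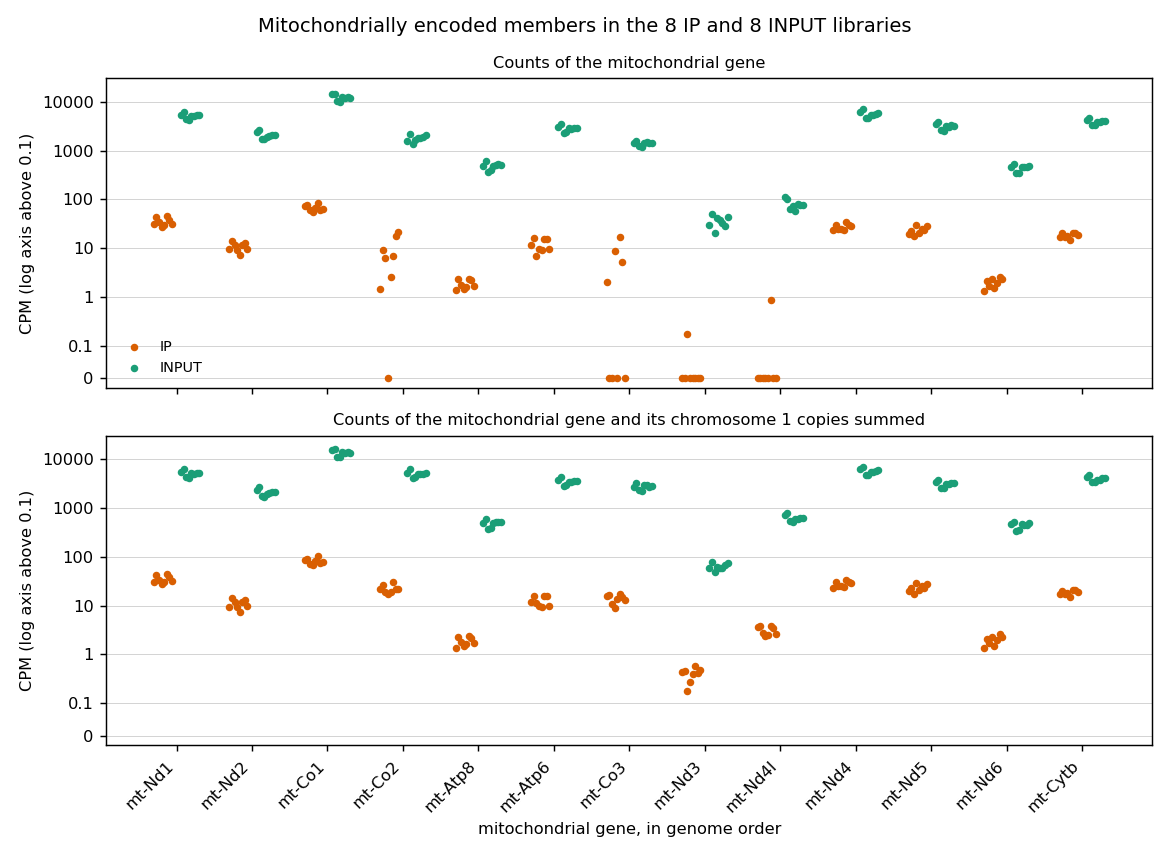
CPM (y axis, log scale above 0.1, linear below) of the 13 mitochondrial members in genome order in the 8 IP and 8 INPUT libraries, as counted (upper panel) and with the counts of the chromosome 1 copies added (lower panel), 1 point per library. As counted, mt-Nd3, mt-Nd4l, mt-Co3 and mt-Co2 have IP libraries at 0, and with the copies added their IP libraries lie together and below every INPUT library.

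Between the diets no member passed edgeR's test in either fraction, and Ndufc1 in the IP, described next, passed in several other fits. In the IP, 0 of 103 members tested passed between HFD and CD, beside 0.0883% of the 15858 genes tested (14 genes). In all, 21 members and 1831 genes had an unadjusted p under 0.05. The signs of the nuclear members leaned one way: 79 of 92 had a positive log2 fold change, with a median of 0.11 where the median over all genes was 0.00. Values were positive in 31 of 36 members of complex I, 2 of 4 of complex II, 8 of 9 of complex III, 16 of 18 of complex IV and 15 of 17 of complex V. The nuclear members' share of nuclear protein-coding counts was 1.58, 1.62, 1.47 and 1.64% in HFD IP pools 1 to 4 and 1.48, 1.48, 1.499 and 1.39% in CD IP pools 1 to 4. Of these, 3 HFD pools lay above all CD pools and the third HFD pool lay within their range. Members share libraries and scaling, so these signs are not independent of each other. Markers of other cells moved in the same libraries: summed astrocyte markers stood at 22621 to 25107 CPM in HFD IP and 25147 to 28545 CPM in CD IP, without overlap. Slc1a2 made up the largest part of this sum, at 11860 to 13820 CPM in HFD IP and 14100 to 16590 CPM in CD IP. Gfap leaned the other way, at 1313 to 1669 CPM in HFD IP and 1061 to 1324 CPM in CD IP, so the sum does not speak for every astrocyte marker. Summed oligodendrocyte markers stood at 606.5 to 709.6 CPM in HFD IP and 656.5 to 738.8 CPM in CD IP. Signs were negative for 8 of 10 astrocyte, 6 of 8 oligodendrocyte and 12 of 15 endothelial markers under HFD, none of which passed the test (0.0883% of all genes did). Neuron markers were mostly lower by mean as well, such as Map2 (543.7 to 600.6 CPM in HFD IP, 581.3 to 700.2 CPM in CD IP). Stmn2 was slightly higher (138.7 to 175.6 CPM in HFD IP, 143.5 to 153.2 CPM in CD IP). The part of any of these cell types in the lean was not tested. Of 92 nuclear 95% intervals, 85 lay wholly within ± 0.5 on the log2 scale.

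Ndufc1, a small accessory subunit of complex I, had the lowest p in the IP. It reached 70.6, 77.7, 78.2 and 72.5 CPM in HFD IP and 53.9, 65.3, 63.7 and 54.8 CPM in CD IP, without overlap (log2 fold change 0.35 ± 0.07, 95% interval 0.19 to 0.50, edgeR adjusted p 0.0755). In the INPUT the same gene had 37.0, 37.4, 36.4 and 39.4 CPM under HFD and 31.8, 34.2, 33.5 and 35.6 CPM under CD, again without overlap (0.15 ± 0.06, adjusted p 0.573). DESeq2 (adjusted p 0.00498), a fit without the filter on low counts (0.00122) and a fit of all 16 libraries (0.022) put Ndufc1 in the IP past the threshold, as the only member, while calling 1.65, 1.5 and 0.688% of all genes.

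The next were Cox6b2, with 3.47, 2.92, 3.36 and 3.41 CPM in HFD IP and 1.99, 2.43, 1.86 and 2.49 CPM in CD IP (0.60 ± 0.16, edgeR adjusted p 0.149), and Atp5j, a stalk subunit of complex V, with 304, 325, 330 and 321 CPM in HFD IP and 254, 307, 291 and 253 CPM in CD IP (0.23 ± 0.07, adjusted p 0.224). Cox6b2 did not overlap between the diets and Atp5j did. Of 11 mitochondrial members that passed the filter in the IP, 0 were called and 1 had a positive sign, with a median of -0.14. Whether these mitochondrial reads came from the tagged cells was not tested.

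In the INPUT, 0 of 104 members passed between HFD and CD (0.0355% of 16879 genes, or 6, passed), and 8 members and 1258 genes had an unadjusted p under 0.05. The signs were mixed, with 39 nuclear members positive and 52 negative. The lowest p was that of Cox7a2l, with 145, 161, 167 and 181 CPM in HFD INPUT and 179, 187, 196 and 178 CPM in CD INPUT (-0.18 ± 0.06, edgeR adjusted p 0.539). mt-Nd1 in HFD INPUT had 5369, 6190, 4330 and 4131 CPM in pools 1 to 4, a spread wider than that of the CD INPUT pools. The test of whether the diet effect differed between IP and INPUT called 0 of 106 members (0 of 17592 genes; 2 members and 755 genes had an unadjusted p under 0.05, and DESeq2 called 2 genes), with Cox6b2 at 0.85 ± 0.25, Ndufa1 at 0.22 ± 0.11 and Cox8a at 0.17 ± 0.08, each at an adjusted p of 1.00.

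WZB117 at 10 µM left the subunits of the chain near their DMSO levels, and 2 members moved when cultures were compared within a passage. Without the passage as a block, 0 of 101 members passed between 10 µM and DMSO, beside 1.27% of 15466 genes. In all, 2 members and 1728 genes had an unadjusted p under 0.05. The labels give the passage of every culture and cultures of the same passage deviated together, so the blocked fit is given beside it. There Ndufv3 rose and Ndufaf4 fell, among 17.9% of all genes called. In the fit without the block, the median log2 change across the 88 nuclear members tested was -0.01. There, 82 of 88 intervals lay within ± 0.5.

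Ndufv3, a small accessory subunit at the NADH-binding tip of complex I, had 49.5, 54.5 and 62.8 CPM under DMSO, 44.0, 55.0 and 66.2 CPM at 0.5 µM and 78.5, 77.7 and 90.9 CPM at 10 µM (passages 12, 14 and 18). All 10 µM cultures were above all others, and within the 3 passages the difference from DMSO was 0.66, 0.51 and 0.53 on the log2 scale. The fitted change from DMSO was 0.57 ± 0.07 with the passage block (edgeR adjusted p 1.32e-06) and 0.57 ± 0.15 without it (95% interval 0.22 to 0.91, adjusted p 0.166).

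Ndufaf4, an assembly factor, had 31.7, 31.6 and 26.3 CPM under DMSO, 26.2, 33.8 and 25.0 CPM at 0.5 µM and 18.7, 26.7 and 15.3 CPM at 10 µM in the same order. It was lower than DMSO within each passage, by -0.75, -0.24 and -0.76 on the log2 scale, but the 10 µM culture at passage 14 lay above the DMSO culture at passage 18. The fitted change was -0.59 ± 0.09 with the block (edgeR adjusted p 8.76e-05) and -0.56 ± 0.20 without it (95% interval -1.02 to -0.11, adjusted p 0.312). Between 10 µM and 0.5 µM the same genes passed with the block, Ndufv3 at 0.59 (edgeR adjusted p 8.62e-07; 0.58, adjusted p 0.152 without it) and Ndufaf4 at -0.50 (0.000502; -0.49, adjusted p 0.408 without it), beside 17.1% of all genes; without it 0 of 101 members passed, beside 1.27%.

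**Figure D4:**
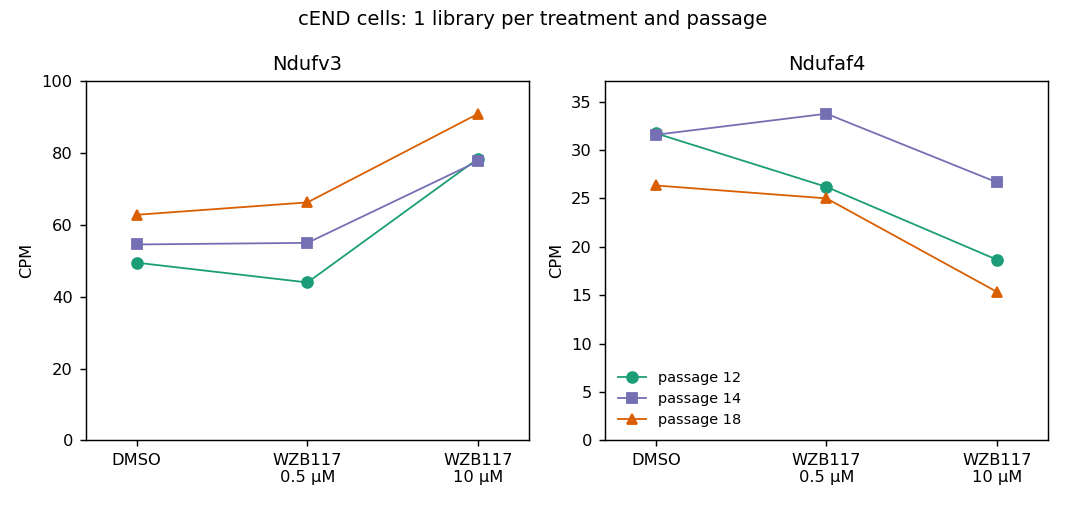
CPM (y axis, from 0) of Ndufv3 (left) and Ndufaf4 (right) in cEND cells under DMSO, 0.5 µM and 10 µM WZB117 (x axis), with 1 point per library and a line joining the cultures of a passage. Ndufv3 is highest at 10 µM in each passage (78.5, 77.7 and 90.9 CPM), and Ndufaf4 is lowest there in each passage (18.7, 26.7 and 15.3 CPM).

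The third lowest p at 10 µM was that of Ndufab1, the mitochondrial acyl carrier protein, with 46.4, 50.1 and 46.2 CPM under DMSO, 44.9, 50.9 and 50.5 CPM at 0.5 µM and 42.8, 44.4 and 40.9 CPM at 10 µM (-0.15 ± 0.09, edgeR adjusted p 0.601). Complex III had 0 of 9 members with a positive sign, in a narrow range from -0.07 to -0.00. Of 86 nuclear members at a mean of 1 CPM or more, 6 were higher and 9 were lower than DMSO in 3 of 3 passages at 10 µM, and 9 were higher and 5 lower at 0.5 µM. Of the 13 mitochondrial members 1 was higher and 1 lower in 3 of 3 passages at 10 µM, whereas at 0.5 µM 0 were higher and 7 were lower. The fitted signs at 0.5 µM were negative for 11 of 13 as counted and for 12 of 13 with the chromosome 1 copies added. Members share libraries, so signs are not independent of each other. The share of all genes with the same sign in 3 of 3 passages is not given here, so these counts are description only. The 13 mitochondrial members ran from -0.69 (mt-Nd3) to 0.41 (mt-Co2) at 10 µM with 0 called, and with the copies added from -0.13 to 0.10, again with 0 called. At 0.5 µM, 0 members and 0 genes were called, and 0 members and 55 genes had an unadjusted p under 0.05; DESeq2 called 0 genes.

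The same libraries held strong changes in a neighbouring list, which was chosen with earlier results of these data known. Of 14 genes of mitophagy and the hypoxia response, 8 rose at 10 µM without the passage block, beside 1.27% of all genes called. The list's median log2 change was 1.26. Those that rose included Bnip3, a mitophagy receptor (3.18), Ankrd37 (2.55), the glucose transporter gene Slc2a1 (1.92) and Vegfa (1.26). At 0.5 µM, 0 of the 14 genes passed, beside 0 of 15466 genes. Their summed level was 2479 to 3063 CPM under DMSO, 2360 to 3214 CPM at 0.5 µM and 4290 to 4905 CPM at 10 µM. At 10 µM the same fit called 0 of 13 genes of the citric acid cycle and 0 of 20 of electron entry. It also called 0 of 20 of mitochondrial transcription and translation, with 3 positive signs and a median of -0.11. Of 43 assembly factors outside the rule 1 rose. Each of these counts stands beside the same 1.27% of all genes. Ndufa4l2 and Cox4i2, the members best known for a response to low oxygen, were at or near 0 in cEND cells and were filtered out, together with Cox6b2, Cox7b2, Cox8b and Cox8c.

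More members differed between passages than between doses, most of them lower at the later passage. Between passages 18 and 12, 10 members were higher and 19 lower of 101 tested, beside 15.3% of all genes higher and 18.7% lower (33.9% in all), so the share called was near that of all genes. By complex, 6 rose and 6 fell of 36 in complex I, 0 and 2 of 4 in complex II, 1 and 3 of 9 in complex III, 2 and 3 of 14 in complex IV, and 0 and 5 of 17 in complex V. None of the 8 Ndufaf genes passed. The nuclear members' share of nuclear protein-coding counts was 1.19 to 1.21% at passage 12, 1.14 to 1.15% at passage 14 and 1.04 to 1.13% at passage 18, with the lowest value in the 10 µM culture. Passage number, time in culture and anything else that differed between the culture rounds cannot be told apart.

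Uqcrfs1 fell most, with 95.7, 94.6 and 92.4 CPM at passage 12 (DMSO, 0.5 µM, 10 µM), 84.7, 81.6 and 83.3 CPM at passage 14 and 66.6, 64.6 and 66.5 CPM at passage 18, a log2 change of -0.52 ± 0.06 between passages 18 and 12. The 3 treatments moved together and no passage overlapped another. Sdhd had 107, 104 and 107 CPM at passage 12, 90.0, 92.98 and 89.5 CPM at passage 14 and 84.5, 83.4 and 75.7 CPM at passage 18 (-0.39 ± 0.06). Cyc1 had 152, 160 and 165 CPM at passage 12, 155, 156 and 146 CPM at passage 14 and 136, 124 and 111 CPM at passage 18 (-0.37 ± 0.07). Both were lower in all passage 18 cultures than in any earlier one. Ndufa10 and Uqcrc1 fell by 0.29 each. Atp5b fell by 0.27, with 1482, 1457 and 1569 CPM at passage 12, 1401, 1397 and 1497 CPM at passage 14 and 1288, 1277 and 1174 CPM at passage 18.

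Ndufs8, an iron-sulfur subunit of complex I, went the other way, with 48.3, 56.0 and 55.9 CPM at passage 12, 62.0, 61.4 and 59.4 CPM at passage 14 and 72.0, 71.3 and 69.9 CPM at passage 18 (0.41 ± 0.07). Cox7a2l had 141, 129 and 160 CPM at passage 12, 126, 129 and 140 CPM at passage 14 and 165, 189 and 177 CPM at passage 18 (0.31 ± 0.07). Ndufs8 was highest at passage 18 after an intermediate level at passage 14, whereas Cox7a2l was higher at passage 18 only. Ndufv3, the gene that was also higher at 10 µM WZB117, rose by 0.38 ± 0.07, but did not pass in a fit without the treatment (0.35, adjusted p 0.397). Cox6a2 passed at 1.21 ± 0.38 but was at 0.28 to 1.54 CPM, and was lost in 3 of 9 fits that left out a library (1.04, adjusted p 0.0846 without the DMSO culture at passage 18). Ndufa3 (0.29) was no longer called without the DMSO culture at passage 18 (0.22, adjusted p 0.0732), and Uqcrq (0.23) was lost in 4 of 9 fits that left out a library, with its lowest value (0.13, adjusted p 0.231) without the 0.5 µM culture at passage 18.

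**Figure D5:**
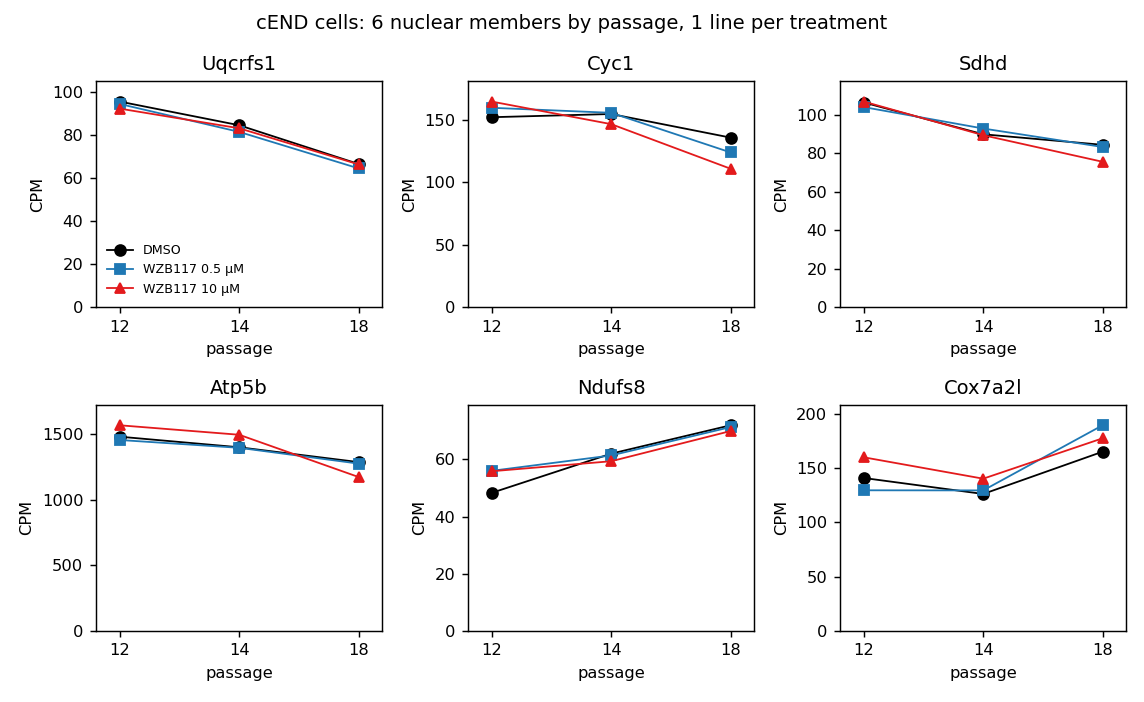
CPM (y axis, from 0) of 6 nuclear members in cEND cells at passages 12, 14 and 18 (x axis), with a line for each treatment and 1 point per library. Uqcrfs1 lies at 92.4 to 95.7 CPM at passage 12, 81.6 to 84.7 CPM at passage 14 and 64.6 to 66.6 CPM at passage 18, and Ndufs8 lies at 69.9 to 72.0 CPM at passage 18, above every earlier culture.

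The shorter steps gave 14 members between passages 14 and 12 (6 higher, 8 lower, beside 20.8% of all genes, 9.66% higher and 11.1% lower). They gave 26 between passages 18 and 14 (9 higher, 17 lower, beside 32.1%, 15.3% higher and 16.8% lower). In the first, Sdhc was lower at passage 14 (-0.31) in every fit that left out a library. mt-Nd4 (0.57) was higher, but was no longer called without the 0.5 µM culture at passage 12 (0.53, adjusted p 0.0622). In the second, Cox7a2l (0.43) was higher at passage 18 and Ndufaf4 (-0.50), Uqcrfs1 (-0.34) and Cyc1 (-0.31) were lower, all of them also called in each fit that left out a library. Between passages 18 and 12, 1 of 13 mitochondrial members passed, mt-Co1 (0.20 ± 0.06; 0.18, adjusted p 0.0593 without the 0.5 µM culture at passage 18), and with the chromosome 1 copies added mt-Co2 (0.25) and mt-Co3 (0.29) passed as well. Without the chromosome 1 copies, the count of mitochondrial members for each count on nuclear members was 0.746 to 0.831 at passage 12. It was 0.805 to 0.880 at passage 14 and 0.886 to 1.05 at passage 18. The hypothalamic INPUT, which was scaled in a separate table, had 3.65 to 5.81 on the same basis. In the cEND libraries the copy held 51.2 to 80.4% of the sum of both loci for mt-Co3 and 6.63 to 9.73% for mt-Co1, so these ratios would be higher with the copies added.

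Among other mitochondrial lists, those of the citric acid cycle and of electron entry had mostly lower members at passage 18. Of the citric acid cycle genes 9 of 13 fell between passages 18 and 12 and 0 rose (median -0.21), beside 18.7% of all genes lower, led by Idh3a (-0.65), Mdh2 (-0.40) and Idh3b (-0.39). Of genes for electron entry and carriers 10 fell and 1 rose of 20, with the cytochrome c gene Cycs at -0.29. Assembly factors outside the rule were mixed, with 4 higher and 7 lower of 43, beside 15.3% of all genes higher and 18.7% lower. Endothelial markers were higher in the same cultures, 11 of 13 tested rising and 1 falling, with summed levels of 4724 to 5455 CPM at passage 12, 4930 to 5235 CPM at passage 14 and 6320 to 6932 CPM at passage 18. Their part in the fall of respiratory transcripts was not tested.

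Promoters of the nuclear members were read in RefSeq windows of GRCm38.p6, 250 bases before to 50 bases after each gene's start, which matched 74 of 94 members. The NRF1 motif CGCNTGCGC, bound by a regulator known for nuclear respiratory genes, was present on either strand in 22 of 74 members (29.7%) and in 7.03% of the 27025 genes with a window. The ETS motif CCGGAAG, bound by GABP (Gabpa above), was present in 18 members (24.3%) and 9.93% of all genes, the YY1 motif AAGATGGCG in 8 members (10.8%) and 1.64%, and the ERR motif TCAAGGTCA in 2 members (2.70%) and 0.466%. The 27025 genes were not limited to protein-coding or expressed genes, whereas all members are protein-coding, so these shares are not from matched sets. A match describes the letters and is not evidence of binding. The windows of the 2 genes that moved at 10 µM WZB117 and of Sdhd, among the largest falls with passage and one of the 2 members with an ERR match, are shown with matches in capitals. Ndufaf4 holds an NRF1 match, Ndufv3 none of the 4 motifs, and Sdhd an NRF1, an ETS and an ERR match, all read on the opposite strand.
Ndufv3 (chr17:31519865-31520164, +): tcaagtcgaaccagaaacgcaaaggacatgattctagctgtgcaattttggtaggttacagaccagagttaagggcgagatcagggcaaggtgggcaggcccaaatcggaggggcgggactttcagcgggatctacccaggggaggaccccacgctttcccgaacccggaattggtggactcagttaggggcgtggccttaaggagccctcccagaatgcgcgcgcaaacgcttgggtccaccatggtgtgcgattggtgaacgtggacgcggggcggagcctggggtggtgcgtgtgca
Ndufaf4 (chr4:24897833-24898132, +): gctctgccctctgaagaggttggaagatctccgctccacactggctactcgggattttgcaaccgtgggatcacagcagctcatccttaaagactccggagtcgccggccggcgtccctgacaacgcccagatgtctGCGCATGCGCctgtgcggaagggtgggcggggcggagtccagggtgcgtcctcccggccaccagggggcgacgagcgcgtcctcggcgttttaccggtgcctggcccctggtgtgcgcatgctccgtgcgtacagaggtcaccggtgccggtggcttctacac
Sdhd (chr9:50603800-50604099, -): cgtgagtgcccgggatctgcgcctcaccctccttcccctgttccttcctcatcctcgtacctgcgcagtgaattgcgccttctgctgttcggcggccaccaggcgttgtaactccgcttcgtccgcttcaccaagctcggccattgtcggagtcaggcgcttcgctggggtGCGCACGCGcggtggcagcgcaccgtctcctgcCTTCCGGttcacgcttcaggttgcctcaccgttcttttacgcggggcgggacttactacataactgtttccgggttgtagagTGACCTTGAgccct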

How the data were processed

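RNA from mouse hypothalamic IP and INPUT fractions and from cEND cells was measured by sequencing, and the authors deposited 1 table of expected counts per experiment. The values are estimated counts per gene, not normalized by the authors as deposited; 17.3% of them in the hypothalamic table and 19.8% in the cEND table were not whole, and they were rounded before fitting. The build was GRCm38, per the submitters' processing notes; the aligner, the counter, the annotation release and the duration of WZB117 treatment are not given in the sources used here. Samples were grouped by their titles and labels. The members and the gene lists were chosen with earlier results of these data known, so that no list is independent evidence, and the lists of other pathway genes serve as description only.

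Tests ran over all genes of a table with edgeR 4.0.16 in R 4.3.3 (filterByExpr, TMM factors, robust quasi-likelihood test, Benjamini-Hochberg adjustment over all genes tested, threshold 0.05). IP was compared with INPUT over 16 libraries with diet as a covariate, the diets over the 8 libraries of each fraction and as an interaction over all 16, WZB117 doses with each other over 9 libraries, and passages over the same 9 with the treatment as a covariate. IP and INPUT of the same pool come from the same mice (correlation of their deviations from the group means 0.012 to 0.249), and cultures of the same passage share the passage given by the labels (0.561 to 0.809); fits with the pool or the passage as a block were run beside the others. The alternatives were DESeq2 1.42.0, no filter on low counts, leaving out each library, fits on fewer or more libraries, and library sizes from nuclear protein-coding genes. Counts of the chromosome 1 copies of mitochondrial genes, found with BLAST+ 2.17.0 at 97% identity or more, were added to their genes in an alternative chosen after seeing the data. Transcript length is the median over a gene's protein-coding transcripts in the basic set of GENCODE M21. Promoter sequences are from RefSeq (GRCm38.p6). The fitting steps were tested on simulated data.

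Named genes are, in each comparison, the called members with the largest changes (up to 5 per direction, average log2 CPM of at least 1), or the 3 of lowest p where under 3 passed, besides the 13 mitochondrial genes, isoform pairs and core subunits; the lists add their genes of lowest p. Other members named for a call, a loss of a call or a comparison within a complex were chosen after their values were seen. Replicate libraries of a group differed by more than sampling noise, so none was counted as a duplicate. Intervals cover 95% and come from the fitted spread between libraries.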

Additional observations from a re-analysis of the deposited data

Results flagged for a closer look

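Among groups of 4 hypothalamic pools, 8 of 228 groups of values examined (3.51%) held a pool that stood apart from the other 3, where chance gives about 1 in 20. HFD INPUT pool 4 was high in 3 of them: Uqcr11 at 65.2 CPM (the others at 42.4 to 46.1), Cox6b1 at 115.2 CPM (96.2 to 97.7) and the complex III share of nuclear protein-coding counts at 0.102% (0.0870 to 0.0889%). HFD IP pool 3 was low in 3: Cox4i1 at 176.4 CPM (221.1 to 224.1), Uqcrfs1 at 95.4 CPM (101.5 to 102.5) and the complex III share at 0.125% (0.143 to 0.146%). CD IP pool 4 had a complex I share of 0.366% (0.394 to 0.399%). CD INPUT pool 4 had a complex II share of 0.0841% (0.0811 to 0.0816%).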

How the results depend on the processing

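Among the named members, no called change turned its direction under any alternative. The other called members were not examined one by one for direction. Values that did not pass could turn sign: with the chromosome 1 copies added, 13 mitochondrial members were positive and 0 negative between passages 14 and 12, where 10 and 3 were as counted. Between IP and INPUT 98 to 102 members were called in every fit, 102 with the pool as replicate block. Between HFD and CD in the IP 0 members were called, and 1, Ndufc1, with DESeq2, without the filter on low counts, with a replicate block on the pool number (adjusted p 0.0329) and with all 16 libraries in 1 fit; over all genes those fits called 183, 398, 50 and 121 in place of 14. The diets share pool numbers only (correlations 0.0121 to 0.0689 in the IP, 0.0955 to 0.173 in the INPUT). In the INPUT, the interaction and 0.5 µM against DMSO, 0 members were called in every fit; over all genes the INPUT gave 50 with DESeq2, 116 without the filter, 47 with the block and 2 with 16 libraries in place of 6, and the interaction gave 2 with DESeq2, 1 without the filter and 3 with the block in place of 0. For 10 µM against DMSO the count of 0 became 1 (Ndufv3, adjusted p 0.0352) with DESeq2 and 2 with the passage as replicate block (all genes 504 and 2849 in place of 197), and for 10 against 0.5 µM likewise 1 and 2. Leaving out 1 library kept 0 in each of these (0 to 0).

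Between passages 18 and 12 the 29 members became 17 without the treatment term (all genes 3269 in place of 5412) and 18 to 35 on leaving out 1 library, 18 without the DMSO culture at passage 12. Between passages 14 and 12 the 14 became 5 (all genes 1623 in place of 3318) and 6 to 18, 6 without the DMSO culture at passage 12 or the 0.5 µM culture at passage 14 and 7 without the DMSO culture at passage 14. Between passages 18 and 14 the 26 became 12 (2924 in place of 5116) and 10 to 27, 10 without the 0.5 µM culture at passage 14 and 15 without that at passage 18. Of the named members called, 10 of 17, 2 of 13 and 4 of 15 were called in every such fit. DESeq2 moved the median of all genes between IP and INPUT to -0.32, and that of the nuclear members to 0.65. Levels under 1 CPM limit what can be said of the minor isoforms. The dose comparison, with 3 cultures per dose and no passage block, was limited to a median half-width of 0.242 on the log2 scale. The comparison of passages 18 and 12, also with 3 cultures each but with the treatment as a covariate, had 0.142.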
